A study of Mus musculus with 10 samples.

Results

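The 2 RNA-seq libraries of C1 cells, a long-term culture at passage 6, were compared with the 2 libraries of B cells, the primary cells from which that culture was grown by its labels. These 4 libraries were chosen by their column titles among the 10 libraries of the series, which also holds A, C2 and C3 cells. All cells came from explants of the left atrial appendage of adult C57BL/6 mice aged 8 to 12 weeks, and no label names a transgene or a treatment. B cells grew out after weak digestion with 0.05% trypsin and 0.1% collagenase D, applied in 3 rounds of 5 min, and were sorted as c-kit+/CD45+ cells. C1 cells are labelled as passage 6 of such B cells and as c-kit+/CD45-. A cells grew out after strong digestion with 0.25% trypsin and the same collagenase, and C2 and C3 cells are passages 8 and 10 of B cells. A cells carry the same marker label as C1, and C2 and C3 are labelled as c-kit-/CD45-. Passage, the sorted surface marker and time in culture all differ between B and C1 and cannot be told apart here. Whether the 2 libraries of a type stem from different mice or dishes is not labelled, so the p-values cover only library-to-library spread, which may be technical.

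CD45 is the surface phosphatase encoded by Ptprc and is carried by nearly all white blood cells. Tissue macrophages of the heart take up debris, present antigen and signal through Fc receptors and their adaptors, and the transcription factor PU.1, encoded by Sfpi1, drives much of that programme. The receptor c-kit, encoded by Kit, is found on mast cells and blood progenitors and has been used to sort candidate progenitor cells from heart. Fibroblasts and other mesenchymal cells of the heart make collagens, laminins and proteoglycans and carry Thy1 and Pdgfra.

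The deposited values are log2 values centred on each gene's median over the 10 libraries, so a value of 0 is the gene's own median and says nothing of its level. For genes whose lowest value was shared by at least 2 libraries, that value was read as the floor of the table, and the level could be recovered as normalized reads above a floor of 1. For the others the centred log2 values are given and the level is not known. A single library at the floor cannot be recognised there, so a large fitted difference in these genes may depend on the floor as well. The value of 1 read recovered from the low values was 2.29 and 1.81 normalized reads in B and 1.01 and 0.668 in C1, so that C1 was read more deeply than B. A count of 0 allows up to 3 reads, which is 6.88 normalized reads in B and 3.02 in C1, and these limits cover counting error only. Libraries of a type lay close to each other: over the genes tested their root mean square log2 difference was 0.516 within B and 0.489 within C1, against 2.18 to 2.19 between the types. The 2 libraries of B, and those of C1, still differed by more than sampling noise (chi-square per gene 1.41 over 695 genes in B and 4.38 over 250 genes in C1), so they were not treated as a single library deposited again. That spread may still be technical.

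On the deposited scale more genes were called lower than higher in C1, and the largest differences were falls. Of 14253 genes tested, limma called 1799 higher in C1, which is 12.6% of the genes, and 3005 lower, which is 21.1%. The same shares are the background for every count of list members given below. A gene was called, and is said below to have risen or fallen, at an adjusted p under 0.05 with a log2 difference of at least 1. The median log2 difference over all genes was -0.07, with quartiles at -0.92 and 0.57. A fitted difference of 16-fold or more was reached by 821 of the genes called lower and by 121 of those called higher. In 637 of the genes called lower C1 lay at or under its limit of 3 reads, and in 424 of these both C1 libraries were at the floor. The same held for B in 97 of the genes called higher, with both B libraries at the floor in 50. For such genes the size of the fitted difference depends on the floor, so their normalized reads are given in place of a fold. Of all calls 37.4% were higher in C1, and this share became 50.6% (2290 higher and 2240 lower) when the libraries were brought to a common distribution by quantile normalization. Of the genes named below, Cyba, Itgal, Cd74, Tlr4, Ctsb, Nos2, Zeb2, Cyr61, Frzb and Nrp2 kept their direction but were not called under that scaling, and Hey1 was not called with a floor of 8 normalized reads. Genes with near-identical copies, such as ribosomal protein genes, glycolytic enzymes with pseudogenes and the Oas1 and Lilrb families, are uncertain, since the sources used here do not give how shared reads were counted. In bulk samples fewer cells of a type and less RNA per cell cannot be told apart.

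**Figure D1:**
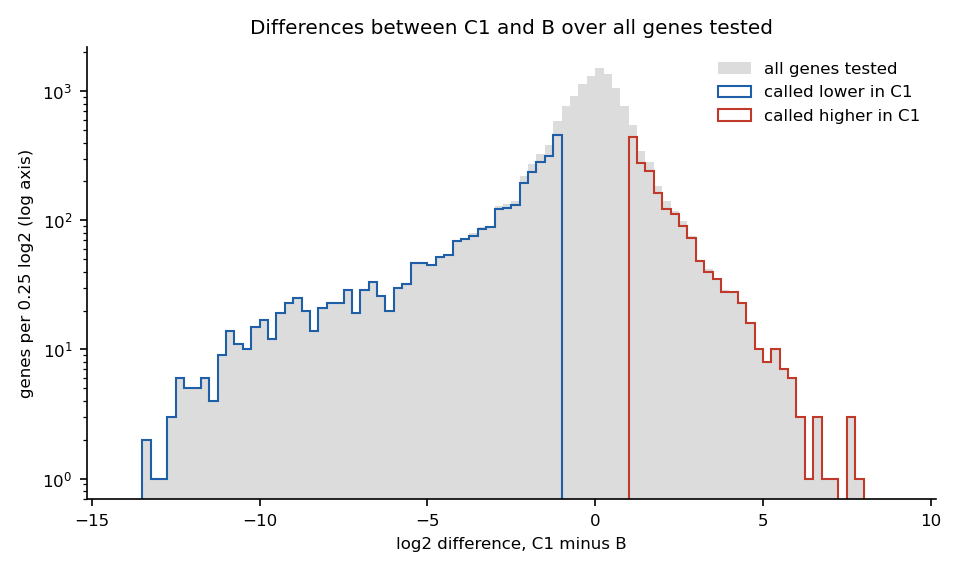
Histogram of the log2 difference, C1 minus B, over the 14253 genes tested with the number of genes on a log axis. Grey bars hold all genes, and the outlines hold the 3005 genes called lower (blue) and the 1799 called higher (red). The blue tail runs to -13.36, while the red tail ends at 7.93.

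The genes of white blood cells were the clearest loss. Ptprc (chr1:138062859-138175756, mm10), the gene of CD45 itself, had 2823 and 2723 normalized reads in the B libraries and 1.01 and 1.00 in those of C1. It fell (limma adjusted p = 0.000152), so the RNA and the CD45 label of the sort had the same direction. B and C1 carry opposite CD45 labels, so this direction was fixed in advance. Other genes of white cells go with CD45, so their counts below describe the 2 types and are no separate support for a loss. All 25 members tested of the list of genes shared by white blood cells fell, against 21.1% of all genes, with a median log2 difference of -9.39 (-8.43 with genes under the limit set to their bound). Among them were Ncf1, a subunit of the oxidase that makes superoxide, with 2724 and 2791 normalized reads in B and both C1 libraries at the floor, and Vav1, an exchange factor of white cell signalling, with 1559 and 1529 in B and the floor in C1. The smallest loss in the list was that of the oxidase subunit Cyba, which fell by 2.00 on the log2 scale (± 0.15, SE). Itgal, an integrin chain, had 605.9 and 592 normalized reads in B and 1.00 and 16.1 in C1, so that the C1 libraries differed. Its call was lost without either B library or without the first C1 library, where the adjusted p by limma ranged from 0.0831 to 0.12.

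In the macrophage list 27 of 28 members tested fell, with a median of -8.68 (-8.16 at the bounds). Emr1 (chr17:57358581-57483529), the gene of the macrophage surface protein F4/80, had 12244 and 11102 normalized reads in B and 3.02 and 2.67 in C1. Cd84, an adhesion receptor of white cells, had 6237 and 5882 in B and 1.01 and 1.00 in C1, and the scavenger receptor Msr1 had 4365 and 4212 against 1.01 and 1.34. In each of the 3 genes the B libraries agreed closely and C1 was at or under its limit. Csf1r, the receptor of the growth factor on which macrophages depend, had centred log2 values of 7.35 and 7.27 in B and 0.20 and 0.24 in C1, and its difference of -7.09 ± 1.19 passed (limma adjusted p = 0.00258). The mannose receptor Mrc1 fell by 11.91 on the log2 scale (± 1.30, SE). Standard errors of this size came with the A libraries, which share the estimate of the spread and differ from each other in these genes: Ptprc had 6.72 and 82.1 normalized reads in A. Gpnmb, a glycoprotein of lipid-laden macrophages, was the member that did not pass (-4.06 ± 1.75, limma adjusted p = 0.0918), but it was called lower in a fit without A (limma adjusted p = 0.000353). The plot of reads by library shows the same separation for genes of several white cell functions.

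**Figure D2:**
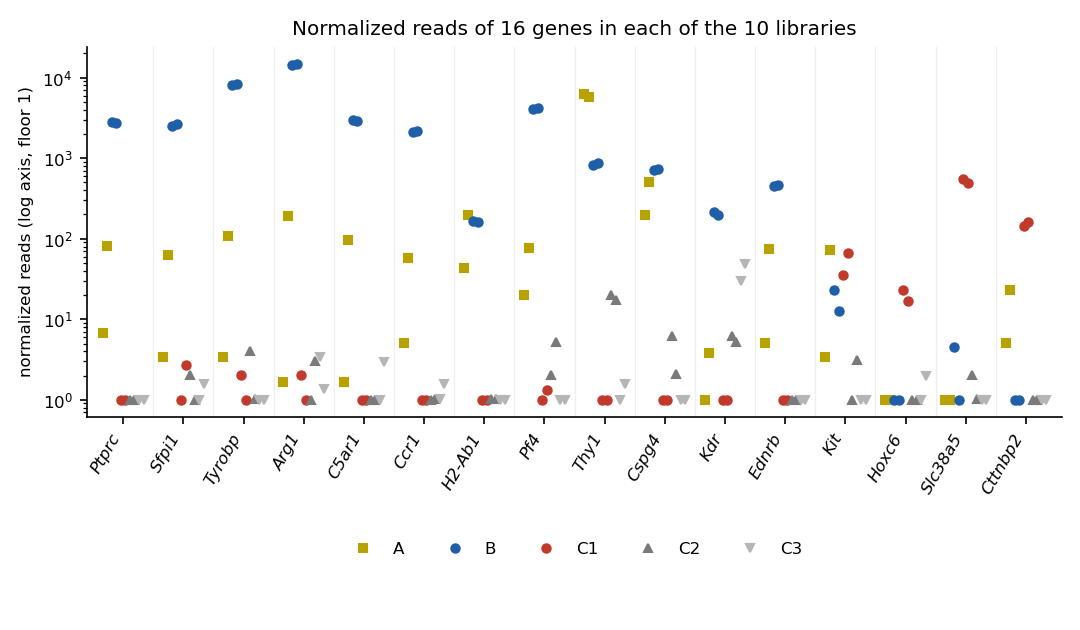
Normalized reads, on a log axis with a floor of 1, of 16 genes of known level in each of the 10 libraries. B is blue, C1 red, A yellow, C2 dark grey and C3 light grey. From Ptprc to Ednrb the B libraries sit between 161 and 14875 normalized reads with C1 at or near the floor, while Hoxc6, Slc38a5 and Cttnbp2 show the reverse.

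Transcription factors that set up the myeloid programme fell with it, 16 of 21 members tested, while 1 rose and 4 did not pass. Sfpi1, the gene of PU.1 (chr2:91082374-91115759), had 2488 and 2670 normalized reads in B and 1.01 and 2.67 in C1. Irf8, a partner of PU.1 in monocytes and macrophages, had 1329 and 1324 in B and 3.02 and 1.00 in C1, and Ikzf1, the factor Ikaros, had 465.2 and 418 in B with both C1 libraries at the floor. Smaller falls included those of Fli1 (-2.56 ± 0.29) and Maf (-2.53 ± 0.37). Runx1 did not pass (-0.46 ± 0.24) and neither did Cebpb (0.33 ± 0.46). Gata2, a factor of blood progenitors and mast cells that endothelial and other cells also express, was the member that rose, with centred log2 values of -2.29 and -2.40 in B and 0.51 and 0.19 in C1.

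Fc receptors and the adaptors that carry an activation motif for the kinase Syk had a median of -10.01, and 22 of 23 members fell. This was the lowest fitted median of the lists, but with genes at their bounds it was -8.42, beside -8.43 for the genes shared by white blood cells. Fcgr2b, the inhibitory Fc receptor, had the largest fitted fall of all named genes (-13.36 ± 1.36, limma adjusted p = 0.000315). Its centred log2 values were 11.52 and 11.54 in B and -1.82 and -1.83 in C1. The level of Fcgr2b is not known and C1 may lie at the floor, so the size and rank of this fall may depend on the floor. Tyrobp, the adaptor DAP12 (chr7:30413782-30417582), had 8011 and 8337 normalized reads in B and 2.02 and 1.00 in C1. Its partner receptor Trem2 fell by 12.47 on the log2 scale (± 1.26, SE), and Inpp5d, the phosphatase SHIP1, had 2770 and 2513 normalized reads in B against 1.01 and 1.00 in C1. The kinases of the pathway fell as well: Btk had 579 and 610.0 normalized reads in B and 1.01 and 1.00 in C1, and Syk fell by 6.38 on the log2 scale (± 0.27, SE). Plcg2, a phospholipase downstream of them, did not pass (-1.53 ± 0.55, limma adjusted p = 0.0530). Its direction depended on the scaling: it was called lower in a fit without A (limma adjusted p = 0.0108) and higher, by 2.15, under quantile normalization (limma adjusted p = 0.0157).

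Because Sfpi1 was lost together with these genes, their promoters were searched for the letters GAGGAA, the core of the site that PU.1 recognises. Promoters were taken from RefSeq (GRCm38.p6), with 1 start per gene. Only the 250 bases before the start were searched, and both strands were read. The letters occurred in 11 of 17 promoters of the Fc receptor list, or 64.7%, against 22.4% of the 11064 genes tested that had a promoter, 25.6% of the genes called lower and 20.5% of those called higher. The share was 41.2% in the list of genes shared by white blood cells and 35.0% in the macrophage list. It was 33.3% (5 of 15) in the list of mesenchymal transcription factors, which rose more often than they fell, and 27.3% in the mitosis list, and these shares were not tested against each other. A match is a description of the letters and shows no binding. The 4 largest falls of the Fc receptor list with a match in the last 150 bases before the start are printed here, with GAGGAA or its reverse complement TTCCTC in capitals, since they show how differently the letters are placed.
Trem2 (chr17:48346251-48346400, plus strand): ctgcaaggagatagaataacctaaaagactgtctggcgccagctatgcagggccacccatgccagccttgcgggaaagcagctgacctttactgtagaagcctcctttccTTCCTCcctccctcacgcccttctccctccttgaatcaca
Inpp5d (chr1:87620162-87620311, plus strand): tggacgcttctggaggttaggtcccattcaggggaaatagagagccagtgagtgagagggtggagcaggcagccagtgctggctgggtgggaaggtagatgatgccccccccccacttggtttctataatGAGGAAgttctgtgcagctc
Lilrb3 (chr7:3720383-3720532, minus strand): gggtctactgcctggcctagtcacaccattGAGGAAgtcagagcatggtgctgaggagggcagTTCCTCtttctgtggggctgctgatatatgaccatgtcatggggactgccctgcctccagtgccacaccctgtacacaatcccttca
Clec12a (chr6:129350094-129350243, plus strand): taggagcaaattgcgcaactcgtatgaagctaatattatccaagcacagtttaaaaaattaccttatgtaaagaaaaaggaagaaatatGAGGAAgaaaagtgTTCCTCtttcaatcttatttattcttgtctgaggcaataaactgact

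In Trem2 and Inpp5d there was 1 match each, starting 40 and 20 bases before the start, while Lilrb3, an inhibitory receptor, and Clec12a, a lectin of myeloid cells, held 2 matches each, 1 on either strand. All 4 genes were at or under the limit of C1 or had fallen by more than 11 on the log2 scale: Lilrb3 had 2296 and 2467 normalized reads in B and the floor in both C1 libraries, and Clec12a had 2658 and 2706 against 1.00 and 1.34. The other motifs searched were TGANTCA, the site of AP-1 factors, GGAATG, the site of TEAD factors, and CANNTG, the E-box, of which GGAATG shares the letters GGAA with GAGGAA, so that a stretch can hold both. TGANTCA was held by 4.97% of the promoters of genes called higher, 5.07% of those called lower and 4.54% of all. GGAATG was held by 13.5%, 9.45% and 10.6% and CANNTG by 58.3%, 60.1% and 56.9%, in the same order.

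Sensors of microbial molecules were lost in the same way. Of 26 Toll-like receptor and inflammasome genes tested 20 fell, 2 rose and 4 did not pass, with a median of -5.33. Tlr13, a sensor of bacterial RNA, had 3186 and 3056 normalized reads in B and 1.00 and 1.34 in C1, and Nlrp3, the core of an inflammasome, had 500.1 and 498.8 in B with C1 at the floor. Casp1, the protease that inflammasomes activate, had 608 and 535 in B and 1.01 and 1.00 in C1. Tlr4, the receptor of bacterial lipopolysaccharide, kept more of its RNA and fell by 1.34 on the log2 scale (± 0.23, SE), while its partner Ly96 rose by 1.27 ± 0.37 and Tlr5, the flagellin receptor, by 2.47 ± 0.67. The count of 2 that rose became 0 without the first library of B or of C1, and 1 without the second library of either. Tlr3 did not pass (0.37 ± 0.24), and neither did the shared adaptor Myd88 (0.95 ± 0.17), whose adjusted p by limma was 0.00334 but whose difference was under 1, except without the second C1 library and under quantile normalization, where it was 1.10 and 1.44.

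Genes that present antigen to helper T cells were low in C1. Of 11 class II and costimulation genes tested 10 fell and 1 did not pass, with a median of -5.26. The class II chains H2-Ab1 and H2-Aa had 167 and 161 and 80.1 and 92.4 normalized reads in B, and both genes were at the floor in both C1 libraries. Cd74, the chaperone of class II molecules, was still read in C1, with 11.05 and 6.68 normalized reads against 304 and 354 in B. The costimulatory gene Cd86 had 230.4 and 202 in B and the floor in C1, while Cd80 did not pass (-1.74 ± 0.78) but was called lower on the 4 libraries alone (limma adjusted p = 0.00221) and without either C3 library (limma adjusted p = 0.00935). Ciita, the master regulator of class II genes, was too low in every library to be tested.

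Complement genes were called in both directions. The 3 chains of C1q, which macrophages make, fell: C1qb (-12.67 ± 1.39 on the log2 scale), C1qc (-12.39 ± 1.36) and C1qa (-12.25 ± 1.24). The receptor gene C5ar1 fell too, with 2993 and 2936 normalized reads in B and 1.01 and 1.00 in C1. The protease genes C1s and C1ra and the component genes C3 and C4b rose: C1s by 4.63 ± 0.24, C1ra by 4.36 ± 0.31, C3 by 2.72 ± 0.35 and C4b by 2.02 ± 0.30. C1s had centred log2 values of -0.64 and -0.79 in B and 3.92 and 3.90 in C1. The 2 types did not overlap there, with C1 above B as in 5393 of all 14253 genes tested. Cd55 and Clu, which restrain complement on cells and in fluids, rose by 4.78 ± 0.34 and 4.65 ± 0.99. In all, 11 of 20 members fell, 8 rose and 1 did not pass, with a median of -2.76.

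Chemokine genes also moved in both directions. Of 20 ligands tested 11 fell, 3 rose and 6 did not pass, with a median of -1.84. Those that fell most are made by white cells and platelets: Pf4 had 4037 and 4194 normalized reads in B and 1.00 and 1.34 in C1, Ccl4 had 856 and 889.8 in B with C1 at the floor, and Ccl3 had 694 and 701.6 against 1.01 and 1.00. Cxcl12, the stromal ligand that holds blood progenitors in their niche, rose by 4.06 ± 0.24 (limma adjusted p = 3.51e-05), from centred log2 values of -2.01 and -2.02 to 2.07 and 2.01. Ccl11, the eosinophil attractant eotaxin, had 2.29 and 1.00 normalized reads in B and 37.3 and 16.03 in C1. Cxcr4, the receptor of Cxcl12, moved the other way, with 1090 and 1023 normalized reads in B and the floor in both C1 libraries. Of 27 cytokine and chemokine receptors of white cells 20 fell, 1 rose and 6 did not pass, with a median of -4.03. Ccr1 had 2113 and 2160 normalized reads in B and the floor in both C1 libraries. Receptors that many cell types carry were among those that did not pass, such as Tnfrsf1a (-0.18 ± 0.14), the main receptor of tumour necrosis factor, and Il1r1 (-0.31 ± 0.38), the interleukin-1 receptor. Il1rl1, the receptor of interleukin-33, rose by 3.02 ± 0.66.

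Enzymes and secreted proteins of activated macrophages fell as well. Arg1, arginase 1 (chr10:24915207-24927470), had 14312 and 14875 normalized reads in B and 2.02 and 1.00 in C1. Of 15 genes of arginine metabolism and macrophage activation 13 fell and 2 did not pass, with a median of -5.47 (-4.13 at the bounds). Markers of opposite activation states fell side by side: Nos2, the inducible nitric oxide synthase, had 47.5 and 41.5 normalized reads in B, Tnf had 73.4 and 83.3 and Clec10a had 18.3 and 24.4, and all 3 were at the floor in C1. The elastase Mmp12 fell by 11.53 on the log2 scale (± 2.05, SE) and so did osteopontin, Spp1 (-8.24 ± 0.50). Odc1, the enzyme that makes polyamines from ornithine, did not pass (0.01 ± 0.36), although the arginase that feeds it was lost.

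Of 31 lysosomal genes tested 14 fell, 1 rose and 16 did not pass, with a median of -0.83. The shares over all genes were 21.1% lower and 12.6% higher. Under quantile normalization 7 of the 31 fell and 4 rose. Ctss, a cathepsin of antigen-presenting cells, fell by 12.13 on the log2 scale (± 1.62, SE), and the pump subunit Atp6v0d2 had 4545 and 4388 normalized reads in B against 3.02 and 4.67 in C1. The cathepsins Ctsd and Ctsb, which most cells carry, fell (-4.57 ± 0.27 and -3.06 ± 0.32). The membrane proteins Lamp2 (-0.13 ± 0.16) and Cd63 (0.20 ± 0.20) did not pass, and the glycogen-degrading enzyme Gaa rose by 1.74 ± 0.23. Of 19 genes of lipid handling 12 fell and 7 did not pass, with a median of -2.72. The scavenger receptor Cd36 had 5068 and 4968 normalized reads in B and 2.02 and 1.00 in C1, Apoe fell by 5.29 (± 0.22, SE) and so did the fatty acid carrier Fabp4 (-7.60 ± 0.36), while Pparg, the nuclear receptor that regulates several of them, did not pass (-0.23 ± 0.20).

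The plot of all lists sets these losses beside the rest. Among the lists drawn, those with a median below -5 hold genes of white cell function. Matrix lists had members called on both sides. No Notch or mitosis gene rose, where 12.6% of all genes did, and no ribosomal protein gene fell, where 21.1% did.

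**Figure D3:**
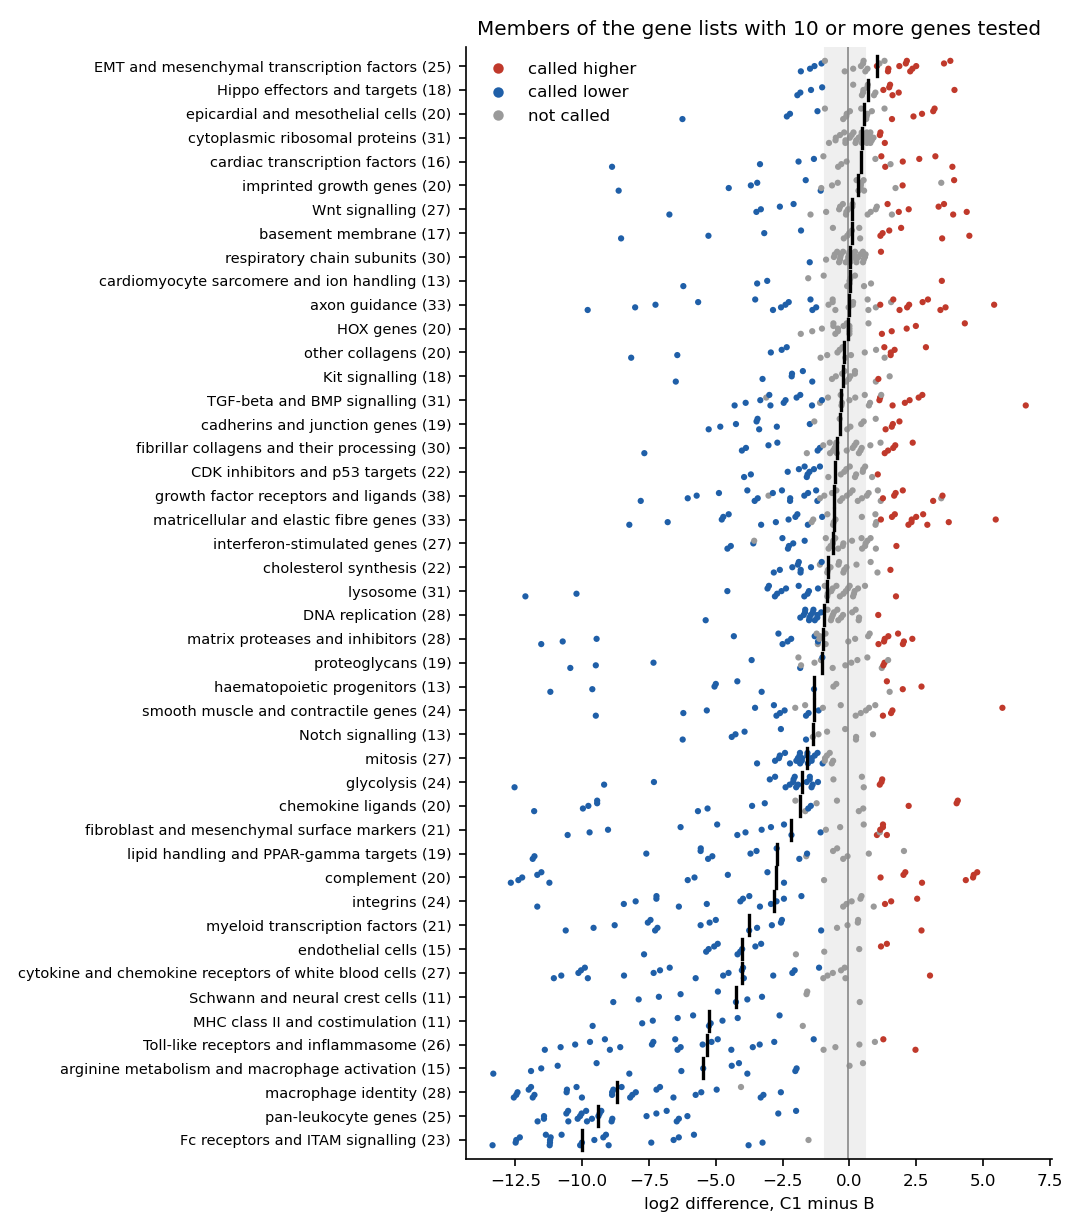
Log2 difference, C1 minus B, of every member tested in the lists with 10 or more members tested, whose number stands in brackets. Red dots were called higher, blue lower and grey not called, black bars mark the medians of the lists, and the grey band runs between the quartiles of all genes, -0.92 and 0.57. The 6 lists at the bottom have medians from -5.26 to -10.01, and the highest median, 1.03, is that of mesenchymal transcription factors.

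Several defining markers of other blood cells were at or near 0 in both types, though other genes of their lists were read in B. Of the 6 defining mast cell markers Fcer1a, Ms4a2 and Tpsb2 were listed at 0 in every library, and Cpa3, Mcpt4 and Cma1 were too low to be tested. Counting a floor of 1 for each gene, Cpa3, Mcpt4 and Cma1 summed to 4.29 and 8.17 normalized reads in B and 5.02 and 5.43 in C1. For lymphocytes Cd3e and Ncr1 were listed at 0 in every library and Cd79a was at the floor in all 4 libraries. Of the 3 lymphocyte genes tested 2 fell: Cd22, an inhibitory receptor known from B lymphocytes, had 238 and 235 normalized reads in B and the floor in C1, and Cd4, the coreceptor of helper T cells that some macrophages also carry, had 43.6 and 32.6 against 2.37 and 1.96. For neutrophils Ly6g and S100a9 were at 0, and S100a8 had 1.00 and 5.43 normalized reads in B and the floor in C1. Flt3, which marks dendritic cell and early blood progenitors, was also at 0. Zbtb46, a factor of dendritic cells, was tested and did not pass (0.80 ± 0.19), since its difference was under 1 (limma adjusted p = 0.0117). Of 7 dendritic cell genes tested 3 fell and none rose, beside 21.1% of all genes called lower and 12.6% called higher. Batf3, another factor known from dendritic cells, had 41.2 and 34.3 normalized reads in B and the floor in C1. Some genes of these lists that macrophages share fell too, such as Itgax, the integrin CD11c, with 4737 and 4587 normalized reads in B and 2.02 and 1.00 in C1. Srgn, the proteoglycan of white cell granules, had 1352 and 1449 in B against 1.01 and 1.00. Prtn3, the granule protease proteinase 3, rose instead, from 1.00 and 1.81 normalized reads to 26.2 and 42.7.

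Kit, the other gene of the sort, differed less than Ptprc. Kit had 22.9 and 12.7 normalized reads in B and 35.3 and 66.4 in C1 (chr5:75574987-75656722). The C1 libraries lay above those of B without overlap, as in 5393 of all 14253 genes tested. The fitted difference of Kit, 1.51 ± 1.32, did not pass (limma adjusted p = 0.372). Kit did not pass in a fit on the 4 libraries alone either (limma adjusted p = 0.0665), but was called higher under quantile normalization (limma adjusted p = 0.0379, difference 3.79). Both types carry c-kit by their labels, while the A libraries, which share that label, had 3.36 and 72.3 normalized reads. Of 18 genes of c-kit signalling tested 6 fell, 1 rose and 11 did not pass, with a median of -0.23. Among all genes 21.1% fell and 12.6% rose. Members of the list that fell included the adaptor Dok2 (-6.50 ± 0.84), the kinase Lyn (-3.25 ± 0.16) and the adaptor Grb2 (-2.16 ± 0.12). Kitl, the ligand of c-kit, did not pass (-0.65 ± 0.30). Among 13 genes of blood progenitors 7 fell, 3 rose and 3 did not pass, and Lmo2, a cofactor of early blood and vessel development, had 3049 and 2980 normalized reads in B and 1.66 and 1.00 in C1.

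Fibroblast marker genes did not move together. The markers checked were Col1a1, Col1a2, Col3a1, Pdgfra, Dcn, Lum and Thy1, of which 3 fell and none rose. Thy1 (chr9:44043384-44048579), a surface marker of fibroblasts, had 832 and 866 normalized reads in B and 1.01 and 1.00 in C1. The small proteoglycan Lum fell by 7.33 on the log2 scale (± 1.07, SE), from centred values of 0.18 and -0.18 in B to -6.04 and -8.62 in C1, and the collagen Col3a1 fell by 2.70 (± 0.43, SE). The main chains of collagen I lay within the test: Col1a1 had 0.06 and -0.06 in B and -0.48 and -0.50 in C1 (-0.49 ± 0.24, limma adjusted p = 0.133), and Col1a2 had 0.19 ± 0.32. Pdgfra, the receptor that marks cardiac fibroblasts, had -0.35 ± 0.23, and the proteoglycan Dcn 0.67 ± 0.22. The level of these 4 genes is not known. Dcn was not called because its difference was under 1 (limma adjusted p = 0.0381). For Col1a1, Col1a2 and Pdgfra, a p that misses the threshold does not show that they were alike in the 2 types.

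Surface genes of mesenchymal cells changed in both directions, 12 of 21 tested falling, 5 rising and 4 not passing, with a median of -2.17. Alcam, an adhesion molecule of stromal and other cells, fell most (-10.55 ± 0.68), from centred log2 values of 4.05 and 3.93 to -7.05 and -6.05. Bst1, an ectoenzyme of stromal and myeloid cells, had 792 and 878 normalized reads in B and 1.90 and 1.34 in C1, and Cd34, a sialomucin of progenitor and stromal cells, fell by 4.19 (± 0.49, SE). Those that rose included receptor genes: Pdgfrb rose by 1.25 ± 0.27, the collagen receptor Ddr2 by 1.26 ± 0.19 and the TGF-beta coreceptor Eng by 1.40 ± 0.17. Fap, an enzyme of activated fibroblasts, did not pass (0.53 ± 0.46).

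Among fibrillar collagens and the enzymes that process them 7 of 30 fell, 5 rose and 18 did not pass, with a median of -0.48, beside 21.1% of all genes called lower and 12.6% called higher. Col24a1 had 185 and 225 normalized reads in B and the floor in C1, and Col11a1 fell by 4.02 (± 0.78, SE). Pcolce, which helps to trim procollagen, rose by 2.37 ± 0.23, while its relative Pcolce2 fell by 3.87 (± 0.18, SE). Lox, which crosslinks collagen and elastin, rose by 1.45 ± 0.15, and the lysyl hydroxylase Plod1 fell by 3.03 (± 0.15, SE). The number that rose became 3 without the second B library.

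Of 20 other collagen genes 5 rose, 5 fell and 10 did not pass. Col6a3, a chain of collagen VI, fell by 8.17 (± 0.58, SE; limma adjusted p = 7.38e-05), from centred log2 values of 0.04 and -0.04 in B to -9.17 and -7.17 in C1. Its partners rose, Col6a1 by 1.55 ± 0.23 and Col6a2 by 1.31 ± 0.23. Col15a1, of vessel and muscle basement membranes, fell by 6.44 (± 0.34, SE), and the main chains of collagen IV, Col4a1 (-0.45 ± 0.17) and Col4a2 (-0.26 ± 0.19), did not pass. Laminin chains, which carry basement membranes, were called in both directions: Lama2 fell by 8.54 (± 0.36, SE; limma adjusted p = 9.92e-06) and Lama3 had 36.1 and 41.5 normalized reads in B and the floor in C1, while Lama1 rose by 4.49 ± 0.47, Lama5 by 3.47 ± 0.62 and Lamb1 by 1.94 ± 0.14. In all 6 of 17 basement membrane genes rose, 4 fell and 7 did not pass. Lama1 is the chain of early embryos and Lama2 that of muscle and nerve.

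Elastic fibre and matricellular genes were split nearly evenly, 12 of 33 falling, 11 rising and 10 not passing. Eln, elastin itself, had 214.6 and 233.9 normalized reads in B and 3.02 and 1.34 in C1, and Ltbp2, a protein of its microfibrils, fell by 4.78 (± 0.67, SE). Postn, periostin, which marks activated cardiac fibroblasts, fell by 3.30 (± 0.38, SE). Thbs2, a thrombospondin that binds matrix proteases, rose by 5.48 ± 0.29, from centred log2 values of -1.46 and -1.79 to 3.94 and 3.77, while its relative Thbs1 fell by 1.55 (± 0.31, SE). The fibulin genes Fbln5 and Fbln1 rose by 2.76 ± 0.52 and 2.33 ± 0.31, and so did tenascin X, Tnxb, by 3.72 ± 0.68. Fibronectin, Fn1, had -0.58 ± 0.21 and fibrillin 1, Fbn1, -0.52 ± 0.23, and neither was called.

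Of 19 proteoglycan genes 6 fell, 2 rose and 11 did not pass, beside 21.1% of all genes called lower and 12.6% called higher. Cspg4, the pericyte marker NG2, had 720.0 and 724.5 normalized reads in B and 1.01 and 1.00 in C1, while the proteoglycan gene Sdc2 rose by 1.31 ± 0.22. Matrix proteases and inhibitors fell in 10 of 28 cases, rose in 8 and did not pass in 10. The largest falls included genes known from white cells: Adam8 fell by 10.73 (± 1.45, SE), and Mmp9 had 611.5 and 819 normalized reads in B and 1.01 and 1.00 in C1. Mmp2, the gelatinase of fibroblasts, fell by 2.50 (± 0.34, SE), while the membrane-bound Mmp14 that activates it rose by 1.46 ± 0.30. Tissue plasminogen activator, Plat, rose by 2.36 ± 0.21 and urokinase, Plau, fell by 4.32 (± 0.19, SE). The heat map of matrix, surface and regulator genes gives several of these in all 10 libraries.

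**Figure D4:**
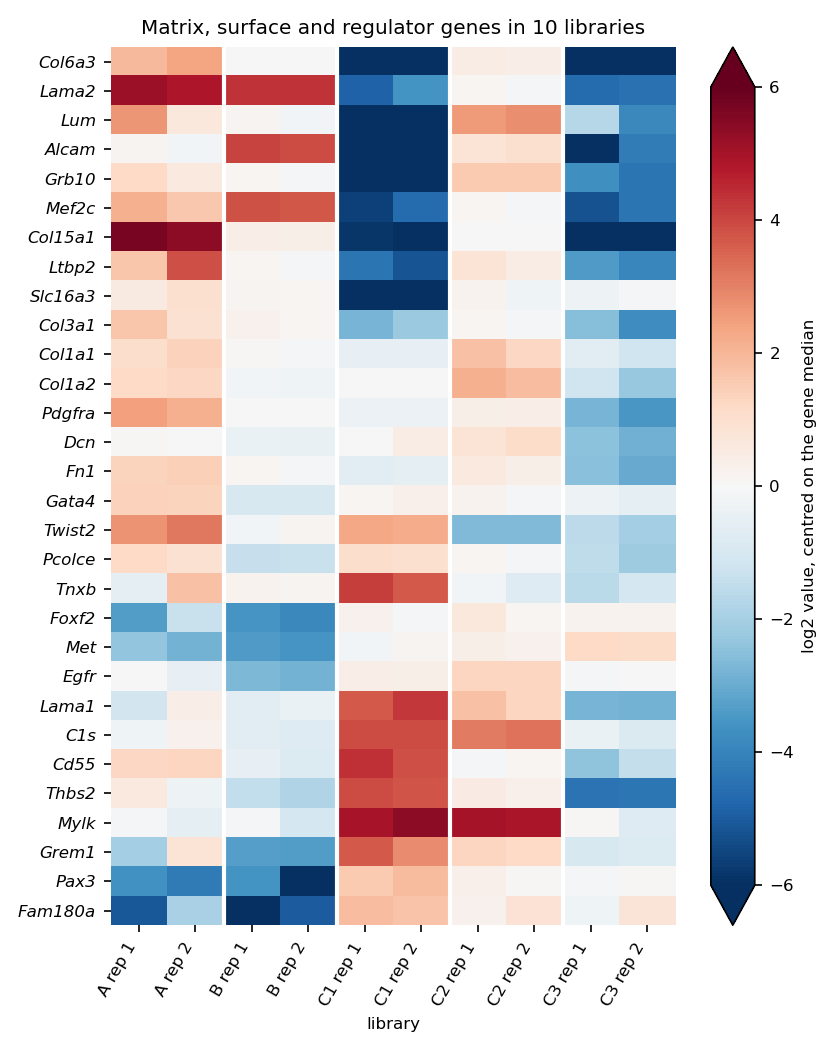
Centred log2 values of 30 genes (rows) in the 10 libraries (columns), red above and blue below each gene's median, with values beyond 6 in either direction drawn in the end colours. Col6a3, Lama2, Lum, Alcam and Grb10 are blue in both C1 libraries and not in B, Col1a1 and Pdgfra are near 0 in both types, and Mylk, Thbs2 and C1s are red in C1 only among these 2 types.

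Transcription factors of mesenchyme rose more often than they fell, in 11 of 25 against 4, with 10 that did not pass. Over all genes 12.6% were called higher and 21.1% lower. The median of the list was 1.03. Foxf2, a forkhead factor of gut and other mesenchyme, rose by 3.78 ± 0.58, and its relative Foxf1 by 2.36 ± 0.47. Foxd1, a factor of kidney stroma and pericytes, had 2.29 and 1.81 normalized reads in B and 22.2 and 25.4 in C1. Among factors known from epithelial-mesenchymal transition, those that rose included Twist2 by 2.28 ± 0.22, Twist1 by 1.44 ± 0.20 and Zeb1 by 1.87 ± 0.12, while Zeb2, which macrophages also express, fell by 1.31 (± 0.18, SE). Snai1 did not pass (-0.18 ± 0.27), and neither did Tcf21, a factor of cardiac fibroblasts (0.68 ± 0.41). The number that fell became 2 without the first B library and 1 under quantile normalization.

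Heart-related transcription factors rose in 6 of 16 cases and fell in 4, beside 12.6% of all genes called higher and 21.1% called lower. The other 6 did not pass. Gata4 rose by 1.20 ± 0.16 and Gata6 by 1.34 ± 0.25, the cofactor Meis2 by 2.61 ± 0.15, and the Iroquois factors Irx5 and Irx3 by 3.85 ± 0.40 and 3.22 ± 0.53. Mef2c, a factor of muscle that macrophages also express, fell by 8.88 (± 0.40, SE), from centred log2 values of 3.84 and 3.71 to -5.61 and -4.62, and Tbx2 fell by 3.35 (± 0.21, SE). Hand2 (-0.10 ± 0.24) and Tbx20 (-0.30 ± 0.21) did not pass. Isl1 and Hand1 were listed at 0 in every library, and Nkx2-5 and Myocd were too low to be tested. Of 25 genes of the heart muscle fibre and its ion handling 4 were listed at 0 in every library and 8 were too low to be tested. Myh6 and Myh7 were among the former and Actn2 among the latter. Of the 13 members tested 3 fell, 1 rose and 9 did not pass, and the defining marker Tnni3, cardiac troponin I, fell by 3.08 (± 0.27, SE). Tnnt2, cardiac troponin T, did not pass (0.81 ± 1.16), with centred log2 values of 0.70 and -1.07 in the 2 C1 libraries.

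Genes of the vessel wall were lost in part. Of 15 endothelial genes 10 fell, 2 rose and 3 did not pass, with a median of -4.01 (-3.30 at the bounds). Kdr, the main receptor of vascular endothelial growth factor, had 213.5 and 198 normalized reads in B and the floor in C1. The 4 defining markers Pecam1, Cdh5, Kdr and Tek together had 325 and 293 in B and 4.02 and 4 in C1. These sums count a floor of 1 for each gene, so all 4 markers were at or near the floor in C1. Pecam1, Cdh5 and Tek each had only 27.2 to 43.4 in the B libraries. A filter at 50 normalized reads left 5 genes that fell. Of 24 smooth muscle and contractile genes 11 fell, 4 rose and 9 did not pass. Des, desmin, had 66.3 and 83.3 normalized reads in B and the floor in C1, and the contractile gene Tagln fell by 2.83 (± 0.50, SE), but Acta2, smooth muscle actin, did not pass (0.43 ± 0.29). Mylk, the kinase of myosin light chain, rose by 5.73 ± 0.39 (limma adjusted p = 6.44e-05), from centred log2 values of -0.11 and -1.04 to 4.93 and 5.37. The 4 genes that rose in this list, Mylk, Tpm1, Cnn2 and Pdgfrb, are also known from other mesenchymal cells.

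Genes of the nerve sheath and neural crest fell in 8 of 11 cases and rose in none, with a median of -4.25 (-2.75 at the bounds). Ednrb, an endothelin receptor of neural crest, had 445.9 and 469 normalized reads in B and the floor in C1, and Sox10, the defining factor of that lineage, had 39.0 and 23.5 against the floor. Nes, nestin, fell by 7.89 (± 0.75, SE). With a filter at 50 normalized reads 4 genes were left that fell. The part of these cell types in the other differences was not tested. Of 20 epicardial and mesothelial genes 5 rose, 4 fell and 11 did not pass. Bnc1 and Bnc2, zinc finger factors of mesothelium, rose by 3.19 ± 0.19 and 3.14 ± 0.44, while Aldh1a2, which makes retinoic acid, fell by 6.25 (± 1.05, SE) and so did the keratin Krt18 (-2.22 ± 0.44). Wt1, a defining factor of epicardium, did not pass (1.31 ± 1.03), but was called higher in the fit without A. The number that fell became 2 without the second C1 library.

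The 12 largest rises among all genes, by fitted difference, are named here. Slc38a5, an amino acid transporter (chrX:8271381-8280179), had 546 and 498 normalized reads in C1 and 4.59 and 1.00 in B, and at most 2.04 in any library of A, C2 or C3. Cttnbp2, which binds cortactin in neurons (chr6:18366471-18515217), had 142 and 160 in C1 and the floor in both B libraries, and at least 22.0-fold more in C1 when B is set to its limit. Kcnh1, a potassium channel, had 85.7 and 181 in C1 against 1.00 and 1.81 in B. All 3 genes were near the floor in B and clearly read in both C1 libraries. Pax3, a factor of neural crest and muscle progenitors, rose by 7.53 ± 1.19, from centred log2 values of -3.60 and -7.97 to 1.58 and 1.92. The B libraries of Pax3 differed widely and its level is not known, so the size of this rise is uncertain and may depend on the floor. Grem1, an antagonist of bone morphogenetic proteins, rose by 6.60 ± 0.81, the xylosyltransferase Gxylt2 by 6.51 ± 0.26 and Lbp, which binds bacterial lipopolysaccharide, by 6.00 ± 0.24. The others were Fam180a (7.71 ± 1.05), the hyaluronan link protein Hapln4 (7.56 ± 1.07), the chloride channel Ano1 (6.25 ± 0.86), the glycosyltransferase Wbscr17 (6.07 ± 0.43) and the carboxypeptidase Cpz (6.06 ± 0.56). By fitted difference the 12 largest falls were Fcgr2b, Arg1, Fcrls, Gp49a, C1qb, Cd84, Hk3, Tyrobp, Trem2, Ms4a7, Nckap1l and C1qc, nearly all known from macrophages or other white cells. In 8 of them C1 was at or under its limit, and the level of Fcgr2b, C1qb, Trem2 and C1qc is not known. The order of the 12 therefore depends on the floor. Against that limit Emr1, which is not among the 12, was at least 3861-fold lower and Cd84 at least 2004-fold lower.

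Of 38 growth factor genes tested 15 fell, 6 rose and 17 did not pass, with a median of -0.57, beside 21.1% of all genes called lower and 12.6% called higher. Those that rose included receptor genes, with Met, the receptor of hepatocyte growth factor, by 3.48 ± 0.20, Egfr by 3.13 ± 0.19, Fgfr1 by 2.00 ± 0.17 and Erbb2 by 1.73 ± 0.16. Met had centred log2 values of -3.42 and -3.55 in B and -0.17 and 0.17 in C1. The receptor gene Pdgfra did not pass, as given above. Those that fell included the ligand genes Igf1 (-2.87 ± 0.35), the TAM receptor ligand Gas6 (-3.55 ± 0.12) and Pdgfc (-2.22 ± 0.27). The binding protein Igfbp5 had 240.7 and 210.6 normalized reads in B and 1.01 and 1.00 in C1. Hgf, the ligand of Met, did not pass (0.02 ± 0.44), nor did Igf2 (3.44 ± 1.27, limma adjusted p = 0.057), which was called higher in the fit without A (limma adjusted p = 0.000351).

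In the list of TGF-beta and BMP signalling 11 of 31 fell, 8 rose and 12 did not pass. Ligand and receptor genes stood on both sides: Tgfb1, the ligand that white cells release, fell by 1.98 (± 0.35, SE) and Tgfb3 rose by 1.12 ± 0.16, while the receptor gene Tgfbr1 fell by 1.40 (± 0.16, SE) and the coreceptor Tgfbr3 rose by 2.25 ± 0.16. The target Tgfbi fell by 4.30 (± 0.56, SE) and so did the feedback inhibitor Smad7 (-1.84 ± 0.24). The BMP receptor Bmpr1a rose by 2.08 ± 0.19, and the antagonists split, with Chrd rising by 2.59 ± 0.21 beside Grem1 and Fst falling (-2.998 ± 0.41). In Wnt signalling 7 of 27 rose, 5 fell and 15 did not pass, beside 12.6% of all genes called higher and 21.1% called lower. Among ligands Wnt5b rose by 4.39 ± 0.39 and Wnt16 had 1.00 and 1.81 normalized reads in B and 26.2 and 15.1 in C1, while Wnt4 fell by 2.09 (± 0.23, SE). The receptor Fzd2 rose by 2.22 ± 0.29, and the antagonists again split, with Dkk3 rising by 3.34 ± 0.25, Dkk2 falling (-6.74 ± 0.69), and Frzb at 784 and 796 normalized reads in B and 124 and 137 in C1. With a floor of 8 normalized reads 3 Wnt genes fell.

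Of 13 Notch genes 6 fell, 7 did not pass and none rose, beside 21.1% of all genes called lower and 12.6% called higher. Their median was -1.37. The targets Heyl and Hey1 had 84.9 and 67.3 and 20.6 and 18.0 normalized reads in B and were at the floor or 1 read in C1, and the receptor Notch4 fell by 2.56 (± 0.39, SE). Hes1, a target in many cells, did not pass (-0.16 ± 0.31). Of 18 genes of the Hippo pathway 6 rose, 4 fell and 8 did not pass. Yap1, the coactivator, rose by 1.85 ± 0.13, and its DNA-binding partners Tead4 and Tead3 by 3.93 ± 0.58 and 1.49 ± 0.21. Those that fell included the target genes Ctgf (-1.95 ± 0.19), Ankrd1 (-1.84 ± 0.20) and Cyr61 (-1.02 ± 0.23).

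Of 24 integrin chains 15 fell, 3 rose and 6 did not pass, with a median of -2.83. Itgax had the lowest value, and Itga6, a laminin receptor chain, fell by 8.44 (± 0.43, SE), from centred log2 values of 2.34 and 2.13 to -6.72 and -5.70. Itga4, the chain that pairs with Itgb1 to bind Vcam1, had 830.2 and 755 normalized reads in B and 35.8 and 61.2 in C1. The shared chain Itgb1 did not pass (-0.23 ± 0.13), and Itga3, another laminin receptor chain, rose by 2.54 ± 0.49. The number that rose became 1 without the second B library. Of 19 cadherin and junction genes 8 fell, 4 rose and 7 did not pass, beside 21.1% lower and 12.6% higher over all genes. N-cadherin, Cdh2, rose by 1.63 ± 0.14 and cadherin 11, Cdh11, fell (-1.48 ± 0.31). The desmosome genes Jup and Pkp2 fell (-2.72 ± 0.47 and -3.38 ± 0.70). Guidance genes moved in both directions, 12 of 33 falling, 10 rising and 11 not passing. Of the class 3 semaphorins, which are secreted, those that rose included Sema3c by 3.60 ± 0.80, Sema3a by 3.41 ± 0.17 and Sema3e by 2.24 ± 0.36. The semaphorin receptor genes Nrp1 and Nrp2 fell (-2.56 ± 0.32 and -2.39 ± 0.51). Sema4d, which white cells carry, fell by 9.79 (± 1.05, SE).

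Genes of cell division were lower in C1. All 27 mitosis genes tested were lower in both C1 libraries than in both B libraries, as were 6229 of all 14253 genes tested. Of the 27 genes 21 fell, beside 21.1% of all genes called lower, and their median was -1.58. Cenpa, the histone of the centromere, fell most (-3.46 ± 0.15, limma adjusted p = 1.19e-05), from centred log2 values of -0.02 and 0.27 to -3.34 and -3.32. The proliferation marker Mki67 had -0.21 and -0.33 in B and -2.71 and -3.40 in C1 and fell by 2.78 (± 0.27, SE), and the cyclin Ccna2 fell by 2.60 (± 0.23, SE). Cdk1, the kinase of mitosis, did not pass (-0.66 ± 0.24). Of 28 replication genes 14 fell, 1 rose and 13 did not pass, with a median of -0.94. E2f2, a factor that activates them, fell by 5.38 (± 0.45, SE) and so did Pcna, the replication clamp (-1.45 ± 0.22), but of the helicase subunits Mcm5 fell (-1.66 ± 0.25) and Mcm2 (0.23 ± 0.21), Mcm4 (0.35 ± 0.24) and Mcm7 (0.10 ± 0.24) did not pass. The number that fell became 9 without the second B library or under quantile normalization, and 8 without the second C1 library.

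Of 22 CDK inhibitors, cyclins D and p53 targets 10 fell, 1 rose and 11 did not pass, with a median of -0.56. Cdkn1a, the inhibitor p21, fell by 2.31 (± 0.45, SE) and so did the stress factor Gdf15 (-3.94 ± 0.48), while Cdkn1b, the inhibitor p27, rose by 1.06 ± 0.20. Cdkn2a, which culture often raises, did not pass (0.50 ± 0.30), and Cdkn2b had 142 and 143 normalized reads in B and 102 and 170 in C1. Cyclin D1, Ccnd1, fell by 1.89 (± 0.23, SE). In the neighbouring lists of metabolism the contrast was between glycolysis and the respiratory chain, as the plot of single genes shows.

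**Figure D5:**
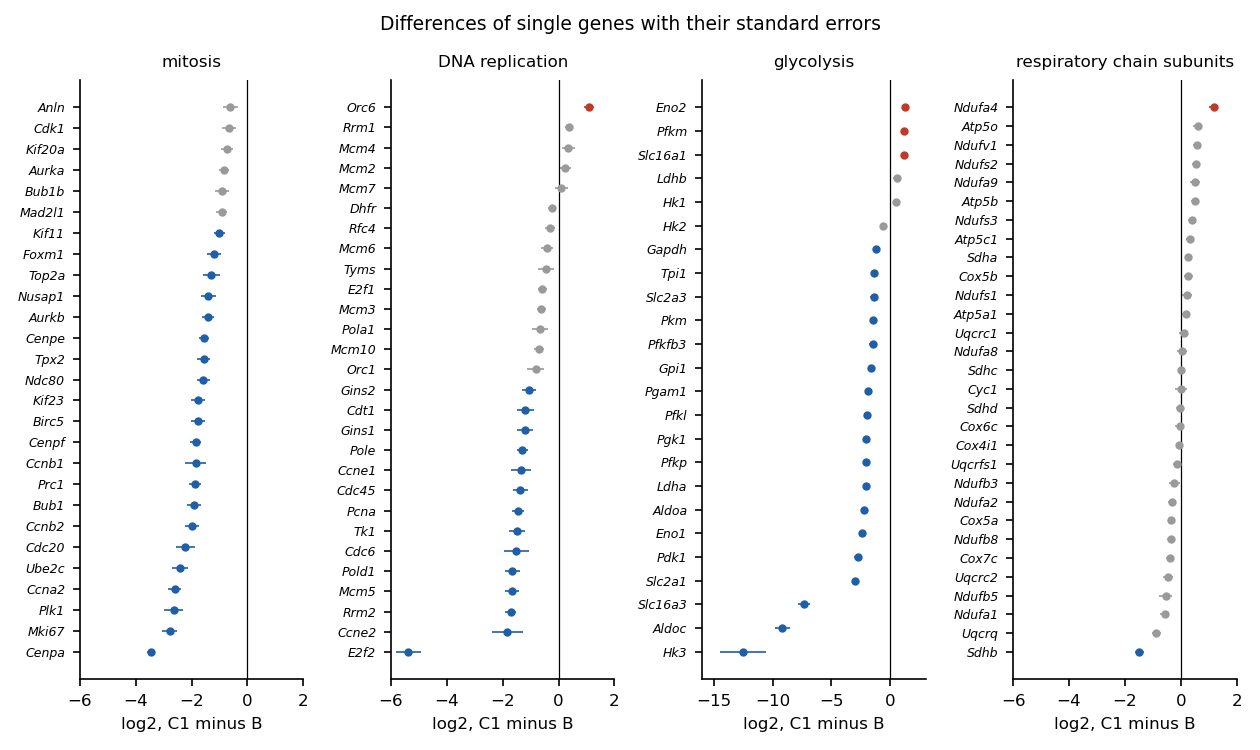
Log2 difference, C1 minus B, with its standard error, of every gene tested in 4 lists, with called rises in red, called falls in blue and others in grey. The axis of the glycolysis panel is wider. All mitosis genes lie left of 0, while the respiratory chain subunits lie around it with a median of 0.01.

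Of 24 genes of glycolysis 18 fell, 3 rose and 3 did not pass, with a median of -1.76. Hk3, the hexokinase of white cells, had 5997 and 5893 normalized reads in B and 1.01 and 1.00 in C1, but enzymes of all cells fell as well: Eno1 (-2.39 ± 0.21), Ldha (-2.10 ± 0.14), Pgk1 (-2.05 ± 0.18) and Aldoa (-2.23 ± 0.15). The lactate exporter Slc16a3 fell by 7.32 (± 0.49, SE), from centred log2 values of 0.14 and 0.11 to -8.01 and -6.36, whereas the carrier Slc16a1 rose by 1.14 ± 0.18. Of 30 nuclear subunits of the respiratory chain 28 did not pass, Ndufa4 rose by 1.18 ± 0.15 and Sdhb fell by 1.48 (± 0.17, SE). Among 22 genes of cholesterol synthesis 9 fell, 1 rose and 12 did not pass. The number that fell became 4 without either B library or without the first C1 library. Of 31 ribosomal protein genes 28 did not pass and 3 rose, with a median of 0.47 and the largest rise in Rpl23 (1.33 ± 0.16). Of 27 interferon-stimulated genes 18 did not pass, 8 fell and 1 rose, while 9449 of all 14253 genes did not pass. Ifi44 fell by 4.56 (± 0.83, SE) and so did Oas1a (-3.60 ± 0.21), but Ifit1 (0.61 ± 0.36) was not called.

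Most HOX genes were at or under the limit in both types. Of 20 tested none fell and 15 did not pass, and in 15 both types were at or under their limits. The 5 that rose included Hoxc6, with the floor in both B libraries and 23.4 and 17.0 normalized reads in C1, Hoxb3 by 2.49 ± 0.24, Hoxb4 by 2.14 ± 0.17 and Hoxb2 by 1.22 ± 0.35. Hoxc6 was at the floor in A and C2 and at most 1.99 in C3. Leaving out the first B library or either C1 library left 3 that rose, and Hoxb2 was not called in any of these fits. Without the second B library, or without A, 2 HOX genes were called lower. Of 20 imprinted genes of growth 6 fell, 2 rose and 12 did not pass, beside 21.1% of all genes called lower and 12.6% called higher. Grb10, which restrains insulin signalling, fell by 8.64 (± 0.39, SE), from centred log2 values of 0.12 and -0.12 to -8.13 and -9.14, and the growth-limiting RNA H19 fell by 3.45 (± 0.22, SE). Peg3 and Peg10 rose by 3.92 ± 0.51 and 1.99 ± 0.37, and the number that rose became 4 in the fit without A. Of the factors of pluripotent cells Pou5f1 was listed at 0 in every library and Nanog and Sox2 were too low to be tested.

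Genes of the sex chromosomes differed between the types. Xist, whose RNA coats and shuts down the inactive X of female mice, had centred log2 values of 4.92 and 4.74 in B and -4.82 and -5.24 in C1, and fell by 9.86 (± 0.89, SE; limma adjusted p = 0.000192). The Y-linked gene Kdm5d had 175.9 and 169.9 normalized reads in B and 390.1 and 388.1 in C1, and Ddx3y had 555 and 414 against 1344 and 1247. Kdm5d, Ddx3y and Eif2s3y rose by 1.17 ± 0.12, 1.43 ± 0.31 and 1.26 ± 0.23, while Uty did not pass (0.86 ± 0.27). The Ddx3y call was lost without the second B library (limma adjusted p = 0.0544), and all 3 calls were lost when the spread was fitted as a trend on the mean value, where the adjusted p by limma was 0.069 to 0.127. B thus held RNA of Xist and of Y-linked genes in the same libraries, and C1 held the Y-linked RNAs with Xist among its lowest values. No label gives the sex of the mice or the number pooled, and the part of sex in the other differences was not tested.

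The values of A, C2 and C3 are given as a description, with no test. Of the 637 genes called lower with C1 at or under its limit, C2 was at or under its limit in 561 and C3 in 440, and both in 411, while A, which carries the marker label of C1, was at or under its limit in 262. The limits differ, at 6.12 normalized reads in C2, 5.75 in A and the floor of 1 in C3, so the counts cannot be compared with each other. Ptprc was at the floor in all 4 libraries of C2 and C3. Several matrix genes did not follow that course: Lum had 2.54 and 2.81 in C2 and Col6a3 0.44 and 0.38, above their values of -6.04 and -8.62 and of -9.17 and -7.17 in C1, while Col6a3 in C3 was again -6.98 and -7.54. Thy1 had 20.3 and 17.6 normalized reads in C2 and 1.00 and 1.59 in C3. Of the 97 genes called higher with B at or under its limit, C2 was at or under its own in 49, C3 in 39 and A in 73. Mki67 was higher in C2 (0.70 and 0.66) and C3 (1.81 and 1.496) than in C1, and also than in B. Among the genes that rose, Wnt16 was higher still in C2, with 155 and 151 normalized reads, and Cttnbp2 was at the floor in all libraries of C2 and C3.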

How the data were processed

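RNA-seq of total RNA was measured in 10 libraries, 2 of each cell type, with a kit that does not mark strand, per the labels' protocols. The submitters' processing notes name TopHat, DESeq and mm10, with no version or role. The authors deposited log2 values per gene, and each gene's median over the 10 libraries was 0. Of 36172 genes 18334 were at 0 in every library and 17 were left out because a cell had turned into a date. A gene was tested if at least 2 libraries reached 10 normalized reads, or if its level was not known. Depth was recovered from the spacing of low values, of which 51.5% to 70.4% in B and C1 were whole reads within 0.01.

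limma 3.58.1 in R 4.3.3 was fitted to all 10 libraries with 1 mean per cell type, and p-values were adjusted by Benjamini-Hochberg over the 14253 genes tested. On data simulated with normal noise 51 of 100 genes changed by 1.5 on the log2 scale and 83 of 100 changed by 3 were recovered, with 6 false calls. No other gene of the 14253 was changed there, while 4804 were called in the real data, so these rates need not hold for it. Values after ± are standard errors from the fit to all 10 libraries. Genes were named as the 12 largest rises and falls (unnamed models left out), up to 4 largest calls in each list, the sort and sex-chromosome genes and defining markers, and the other genes were chosen after their values were seen. The members and lists were chosen with earlier results of these data known. Other scalings, filters, floors, fits and left-out libraries were tried. Some results are not reported here.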

Additional observations from a re-analysis of the deposited data

How the results depend on the processing

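The number called higher ranged from 1707 to 2290 and the number called lower from 2240 to 3283 over the alternatives that kept every library of B and C1. Leaving out each library in turn gave 1535 to 1915 higher and 2676 to 3151 lower. Quantile normalization had 50.6% of calls higher against 37.4%, and Plcg2 turned to 2.15 there. No shared deviation was seen between same-numbered libraries of B and C1: their deviations correlated at 0.024, over 14253 genes that are not independent replicates. Whether same-numbered libraries share a mouse or dish is not labelled and cannot be told from this value. A fit with the replicate block called 1794 higher and 2980 lower, and Plcg2 was called lower there (limma adjusted p = 0.0383). Some short lists also moved. Under quantile normalization 2 myeloid factors, 3 lipid genes, 3 c-kit signalling genes, 4 imprinted genes and 6 ribosomal protein genes rose, and 3 of the other collagens fell. Endothelial genes that rose became 1 without the second library of B or of C1. Without the second C1 library 1 proteoglycan gene and 2 c-kit signalling genes rose, and without the first 3 genes of cholesterol synthesis and no replication gene rose. With a filter at 50 normalized reads 5 cadherin and junction genes fell, and on the 4 libraries alone 4 proteoglycan genes rose. The causes were not tested. With 2 libraries a type, small changes can be missed, and differences under 3 reads were not detectable at this depth.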
